A study of Mus musculus with 2 samples.

Results

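C1q-like proteins, cerebellins and neuronal pentraxins are mostly secreted proteins that sit in the synaptic cleft and help to hold the receptors and adhesion molecules of a synapse in place. The 10 genes described here are the C1q-like ligands C1ql1, C1ql2 and C1ql3, their receptor Bai3 (listed as Adgrb3), the cerebellins Cbln1, Cbln2 and Cbln4, the secreted pentraxins Nptx1 and Nptx2, and the membrane-anchored pentraxin Nptxr. They were chosen by symbol, and all 10 were found among the 32531 gene symbols of the count tables. Ribosome-bound RNA was sequenced from the dentate gyrus of untreated adult mice that carry a transgene for an EGFP-tagged ribosomal protein, Lypd1-EGFP/Rpl10a, line OI82. Lypd1 regulatory sequence drives the tag, and the RNA was pulled down with antibodies against EGFP, a method called translating ribosome affinity purification (TRAP). There were 2 libraries, replicates 1 and 2 of 1 group, both pull-downs. The age in weeks, the sex, and whether each library came from 1 animal or a pool are not in the labels, so the spread between libraries may be partly technical. The level of a gene is its count per 1000000 counts over all gene lines (CPM), and with no second group no p-value is given.

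Granule cells send their axons, the mossy fibres, to pyramidal cells of field CA3. In the mouse, C1ql2 and C1ql3 released from mossy fibres bind neurexin 3 and kainate receptor subunits there. C1ql1 is best known from the cerebellum, where climbing fibres release it and Bai3 on Purkinje cells receives it. Cerebellins bridge neurexins on the axon to delta glutamate receptors, or in the case of Cbln4 to Dcc and neogenin. Neuronal pentraxins cluster AMPA receptors, and Nptx2, also named Narp, is induced by neuronal activity.

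Coding stretches of the most counted C1q-like ligands and of the secreted pentraxins are shown because the whole account rests on reads being assigned to the right family member. Bai3 was not compared with its relatives in this way. Each stretch is the most alike run of 90 coding bases within 1 exon of the pair, read 5′ to 3′ from GENCODE M21 transcripts (GRCm38), and capitals mark bases that differ within the pair. C1ql2 is from chr1:120341619-120341708, plus strand, and C1ql3 from chr2:13010353-13010442, minus strand.
C1ql2: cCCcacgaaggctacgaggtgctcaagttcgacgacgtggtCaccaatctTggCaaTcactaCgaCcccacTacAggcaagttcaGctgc
C1ql3: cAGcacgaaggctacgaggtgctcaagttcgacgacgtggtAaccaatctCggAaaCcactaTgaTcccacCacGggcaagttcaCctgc
Nptx1 is from chr11:119544592-119544681, minus strand, and Nptx2 from chr5:144553555-144553644, plus strand.
Nptx1: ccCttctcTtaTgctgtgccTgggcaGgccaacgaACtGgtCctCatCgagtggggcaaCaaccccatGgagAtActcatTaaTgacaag
Nptx2: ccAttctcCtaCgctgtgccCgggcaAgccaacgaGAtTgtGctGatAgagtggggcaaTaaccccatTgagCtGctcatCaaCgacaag

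The C1ql2 and C1ql3 stretches differed at 11 of 90 bases and the Nptx1 and Nptx2 stretches at 17 of 90. Over all aligned coding bases, C1ql2 and C1ql3 were 75.8% identical, and their longest identical run was 38 bases. That was the longest run of the 9 pairs compared within the families. Nptx1 and Nptx2 were 67.1% identical with a longest run of 16 bases. The length of the reads is not stated in the labels.

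Nptx1, C1ql3, Bai3, C1ql2 and Nptx2 were detected, that is, both libraries had them at 1 CPM or more. These are 5 of the 10 genes, and 38.1% of all counted symbols were detected by the same rule. C1ql1 and Cbln1 reached 1 CPM in replicate 1 but not in replicate 2, and Cbln2, Cbln4 and Nptxr were below it in both. Gene lines summed to 31309643 counts in replicate 1 and to 32711412 in replicate 2. At these depths a count of 0, which allows up to 3 counts, leaves room for 0.0958 CPM in the first library and 0.0917 CPM in the second, for counting error only.

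**Figure D1:**
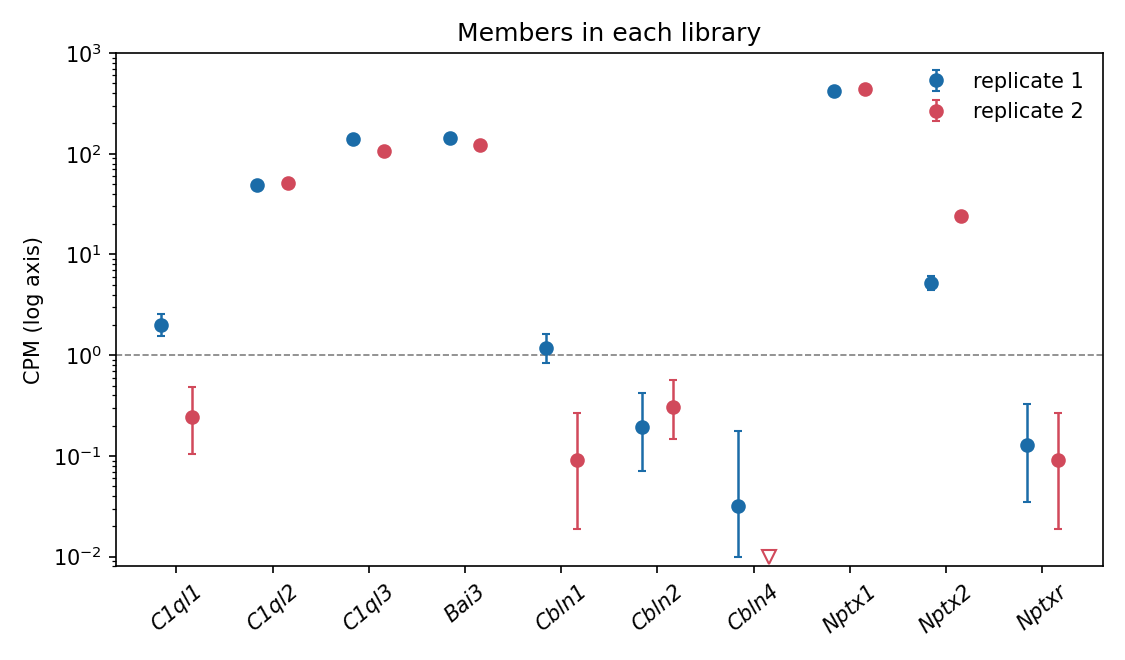
CPM of each of the 10 genes in replicate 1 and replicate 2, on a log axis, with exact 95% counting intervals as bars, the dashed line at 1 CPM and an open triangle for a count of 0 drawn at the axis floor, where the lower bar of Cbln4 also ends. Nptx1, C1ql3, Bai3 and C1ql2 lie close together between the libraries, while Nptx2, C1ql1 and Cbln1 are spread.

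C1ql3 was the most abundant of the C1q-like ligands. The gene codes for a protein and lies on chromosome 2 (13003457 to 13011806, minus strand). Replicate 1 had 4341 C1ql3 counts (139 CPM) and replicate 2 had 3506 (107 CPM). The mean was 123 ± 22.3 CPM (SD, n = 2), and the log2 ratio of replicate 2 to replicate 1 was -0.28 (95% counting interval -0.34 to -0.21). In GENCODE, 64.2% of its exon bases also lie in unclassified transcripts on the opposite strand. Those have no line in the tables and, with the strand setting not stated, their reads could be counted as C1ql3.

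C1ql2 lies on chromosome 1 (120340582 to 120343174, plus strand). Replicate 1 had 1539 counts of it (49.2 CPM) and replicate 2 had 1660 (50.7 CPM). The mean was 49.95 ± 1.13 CPM and the log2 ratio of replicate 2 to replicate 1 was 0.14 (0.04 to 0.24). C1ql3 had 2.82 times the counts of C1ql2 in replicate 1 and 2.11 times in replicate 2. Per kilobase of exon, that is after dividing CPM by the length of all annotated exon bases, C1ql3 was 2.23 and 1.67 times C1ql2. C1ql3 was therefore the higher of the pair in both libraries and on both scales.

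C1ql1, on chromosome 11 (102939264 to 102946688, minus strand), was scarce. The libraries held 63 and 8 counts of it, or 2.01 CPM (95% counting interval 1.55 to 2.57) and 0.245 CPM (0.106 to 0.482). It made up 1.06% of the counts of the 3 C1q-like ligands in replicate 1 and 0.155% in replicate 2. C1ql3 took 73.0% and 67.8% of those counts and C1ql2 25.9% and 32.1%. The remaining family relative, C1ql4, had 0 counts in both libraries.

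Bai3, the adhesion G protein-coupled receptor for C1q-like proteins, lies on chromosome 1 (25067476 to 25829707, minus strand). Replicate 1 had 4536 counts of it (145 CPM) and replicate 2 had 4019 (123 CPM), a mean of 134 ± 15.6 CPM. The log2 ratio of replicate 2 to replicate 1 was -0.15 (-0.21 to -0.08). Its relatives Bai1 (146 ± 6.10 CPM) and Bai2 (92.4 ± 23.3 CPM) were detected as well. Per kilobase of exon Bai3 had the lowest mean of the 3, at 7.21 ± 0.839, against 20.2 ± 0.844 for Bai1 and 14.2 ± 3.59 for Bai2. The Bai3 value depends on the length used, since the 11 annotated Bai3 transcripts, some with retained introns, cover 18559 exon bases and the longest single one has 5530. With the longest transcript as its length, Bai3 was at 26.2 per kilobase in replicate 1 and 22.2 in replicate 2, values on either side of those of C1ql2. By that length, a choice made for the relatives after their values were seen, the means were 24.2 ± 2.81 for Bai3, 23.5 ± 0.979 for Bai1 and 17.9 ± 4.50 for Bai2, so that Bai3 was no longer the lowest of the 3 receptors. The libraries' values of Bai3 and Bai1 then overlapped.

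The cerebellins were near the limit of counting. Cbln1, an organiser of parallel fibre synapses in the cerebellum, lies on chromosome 8 (87468405 to 87472609, minus strand) and had 37 counts in replicate 1 and 3 in replicate 2. These are 1.18 CPM (0.832 to 1.63) and 0.0917 CPM (0.0189 to 0.268). Cbln2, on chromosome 18 (86711110 to 86718283, plus strand), had 6 and 10 counts, or 0.192 and 0.306 CPM. Cbln4, on chromosome 2 (172036233 to 172043466, minus strand), had 1 count in replicate 1 and 0 in replicate 2.

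The 3 cerebellins summed to 44 counts in replicate 1 and 13 in replicate 2, against 5943 and 5174 counts for the 3 C1q-like ligands. Their relative Cbln3 had 5 and 0 counts. At such counts no fold between Cbln2, Cbln3 and Cbln4 can be given. In a bulk sample, fewer cells of a type and less RNA per cell cannot be told apart. Both libraries were pull-downs and none of the RNA before pull-down was available, so no level given here can be assigned to the tagged cells alone.

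Nptx1 had the highest level of all 10 genes. It lies on chromosome 11 (119538719 to 119547753, minus strand) and had 13284 counts (424 CPM) in replicate 1 against 14436 counts (441 CPM) in replicate 2. The mean was 433 ± 12.05 CPM, which ranked 328 among all symbols, and the log2 ratio of replicate 2 to replicate 1 was 0.15 (0.12 to 0.18). Per kilobase of exon it stood above 96.9% of the 11450 detected symbols that have an exon length.

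Nptx2, on chromosome 5 (144545902 to 144557478, plus strand), differed most between the libraries among the detected members. Replicate 1 had 164 counts, 5.24 CPM (4.47 to 6.10), and replicate 2 had 793 counts, 24.2 CPM (22.6 to 25.99). The value of replicate 2 was the higher one, and the counting intervals lay far apart. The log2 ratio of replicate 2 to replicate 1 was 2.29 (2.06 to 2.55). Nptx1 therefore had 81.0 times the counts of Nptx2 in replicate 1 and 18.2 times in replicate 2, while the summed CPM of the pair was 430 and 466.

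Nptxr, which anchors pentraxin complexes in the membrane, had 4 counts in replicate 1 and 3 in replicate 2, or 0.128 CPM (0.0348 to 0.327) and 0.0917 CPM (0.0189 to 0.268). Its locus on chromosome 15 (79786351 to 79804766, minus strand) overlaps a readthrough gene, Npcd, which joins the neighbouring gene Cbx6 to Nptxr. In GENCODE, 890 of the 5170 Nptxr exon bases, or 17.2%, are also Npcd exon. In the RefSeq table of GRCm38.p6, Npcd spans 79786351 to 79834333 and Nptxr lies wholly within it with the same 3′ boundary.

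HTSeq in its default setting gives a read that falls in exons of more than 1 gene to an ambiguous class and to neither gene. Npcd had 0 counts in both libraries and Cbx6 had 4760 and 4904. Neither the counting mode nor the annotation is stated in the labels. The near-zero count of Nptxr is therefore uncertain and cannot be read as absence of its RNA.

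**Figure D2:**
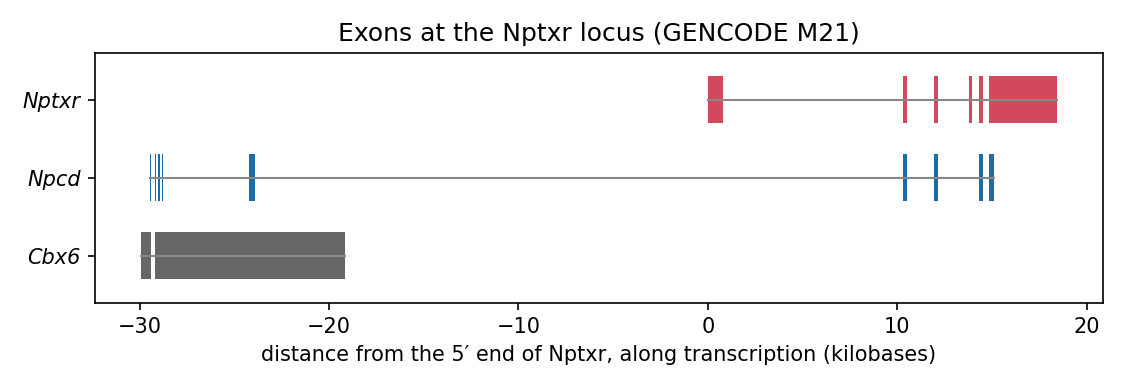
Exons (boxes) and introns (lines) of Nptxr, Npcd and Cbx6 in GENCODE M21, placed by distance in kilobases from the 5′ end of Nptxr. Of the 6 Nptxr exon blocks, 4 coincide in whole or in part with exons of the readthrough gene Npcd.

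Per kilobase of exon the order of means was Nptx1 (83.0 ± 2.31), C1ql3 (48.5 ± 8.78), C1ql2 (24.98 ± 0.563), Bai3 (7.21 ± 0.839), Nptx2 (5.81 ± 5.30), C1ql1 (0.766 ± 0.849), Cbln1 (0.210 ± 0.254), Cbln2 (0.0859 ± 0.0279), Nptxr (0.0212 ± 0.00493) and Cbln4 (0.00550 ± 0.00778). Of these steps, 3 were not resolved, since the libraries' values overlapped between Bai3 and Nptx2, between C1ql1 and Cbln1, and between Cbln1 and Cbln2. The last steps rest on 10 counts or fewer per library, with overlapping counting intervals. With the longest transcript as length, C1ql2 kept the higher mean (24.98 against 24.2 for Bai3), but the libraries' values overlapped, as given above. By that length the values of Bai3 (26.2 and 22.2) no longer overlapped those of Nptx2 (2.07 and 9.56). Without correction for length, Bai3 (134 CPM) came ahead of C1ql3 (123 CPM).

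All 12 known receptors and partners on the list used here were detected, at 3.35 to 1293 CPM, while of 7 family relatives only Bai1 and Bai2 were. Per kilobase of exon, 6 of the 12 lay above the median of the detected symbols and 6 below it. Gria1 and Gria2, AMPA receptor genes whose products are clustered by pentraxins, were the highest of the list per kilobase of exon. Gria1 was at 108 ± 6.70, Gria2 at 83.2 ± 11.98, beside 83.0 ± 2.31 for Nptx1, and Gria3 at 39.8 ± 1.66, while Gria4 was at 1.998 ± 0.584. As for Bai3, such levels depend on the length used. Gria2 has 15548 exon bases and a longest transcript of 10371, and Gria3 has 9859 and 5206. For Nptx1 both lengths are 5217, so the likeness of Gria2 and Nptx1 holds only for the exon length. Among neurexin genes, Nrxn3, a C1ql2 and C1ql3 partner, was at 6.02 ± 0.954 and Nrxn2 at 5.15 ± 0.767. The libraries' values overlapped, at 6.69 and 5.34 for Nrxn3 and 5.69 and 4.61 for Nrxn2. The longest transcripts cover 7922 of the 12605 Nrxn3 exon bases and 6667 of the 13812 Nrxn2 exon bases. Neither gene can therefore be called the higher.

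Of the kainate receptor genes that partner C1ql2 and C1ql3, Grik2 stood at 5.83 ± 0.0537 per kilobase of exon and Grik4 at 2.38 ± 0.530. These are levels in dentate gyrus pull-downs, while the binding described above takes place in field CA3, so no ligand and receptor pair was measured. The Cbln4 receptor genes were detected although Cbln4 was not, Neo1 at 13.7 ± 1.16 and Dcc at 2.86 ± 0.491. The delta receptor gene Grid1 was at 2.57 ± 0.524 on this scale. Adam17, a protease gene whose product cleaves Nptxr, was at 0.468 ± 0.0936. Among family relatives Ptx3, a pentraxin of the immune system, had 1.25 and 0.764 CPM, and Crp and Apcs had 0 counts.

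**Figure D3:**
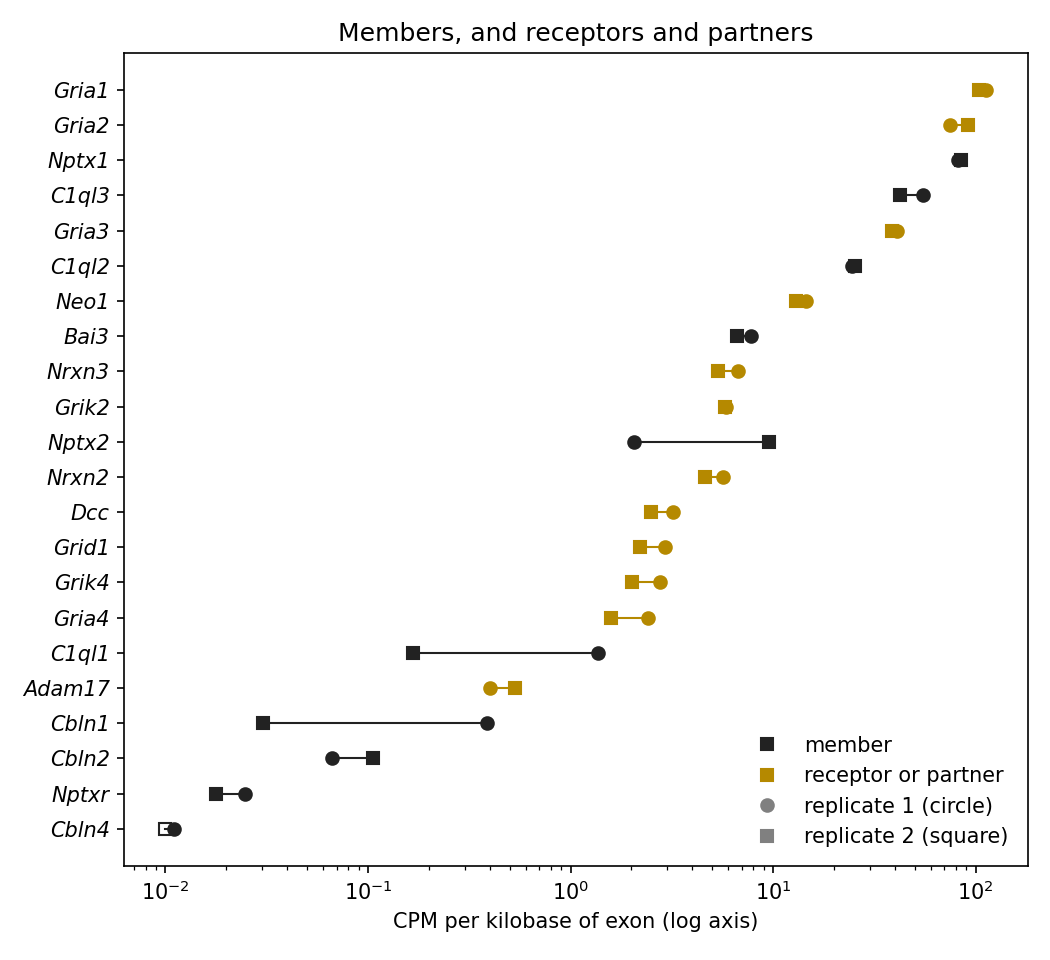
CPM per kilobase of exon (log axis) of the 10 genes (black) and of 12 receptors and partners (ochre), ordered by mean, with a circle for replicate 1, a square for replicate 2 and an open symbol for a count of 0 drawn at 0.01. Nptx1 and C1ql3 lie among Gria1, Gria2 and Gria3, and the cerebellins and Nptxr lie at the bottom.

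Averaged over the libraries, 6 members had 1 CPM or more. Of these, Nptx2 was more than 2-fold higher in replicate 2 and C1ql1 more than 2-fold lower. Among the 13089 symbols with such a mean, 10.3% passed 2-fold in either direction, 4.51% higher and 5.75% lower in replicate 2. Above a mean of 10 CPM the share was 3.19%, and of the 5 members there Nptx2 alone passed. The median log2 ratio of the 6 members was 0.00, beside -0.01 for all symbols. The common coefficient of variation between the libraries, from edgeR in a fit with no groups, was 29.4%.

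**Figure D4:**
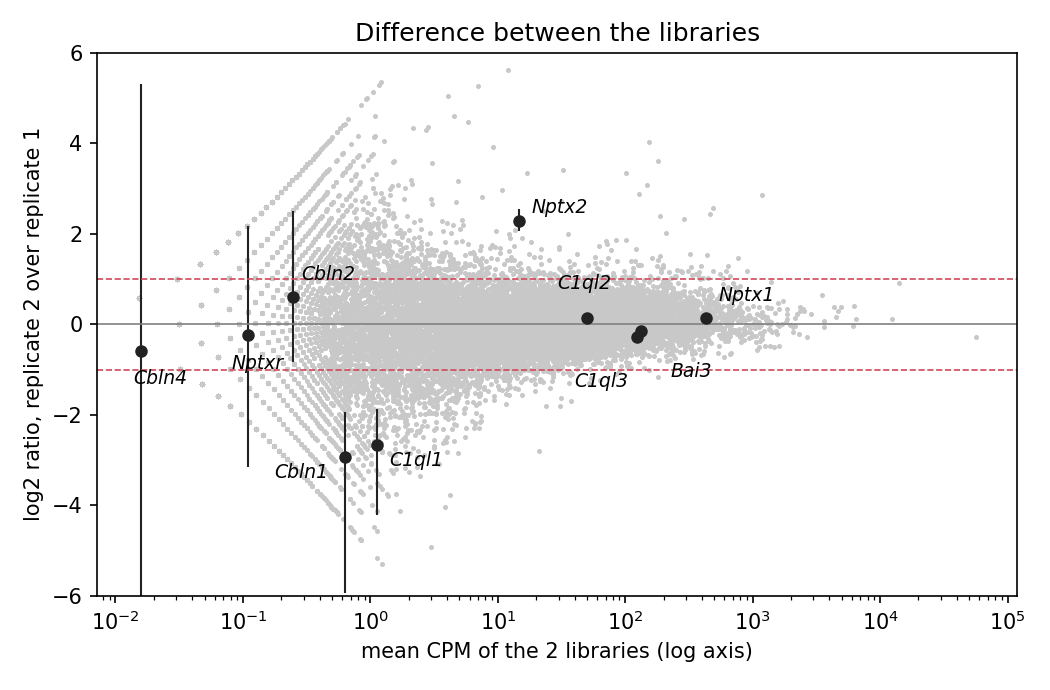
Log2 ratio of replicate 2 to replicate 1 against the mean CPM of both libraries (log axis) for every symbol with a count (grey) and for the 10 genes (black, with 95% counting intervals, cut at the axis limits), the dashed lines marking 2-fold. Nptx2 lies above most grey points at its level, C1ql1 and Cbln1 lie below the lower line with wide intervals, and the other detected members lie near 0.

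The summed CPM of activity-induced genes was higher in replicate 2, as Nptx2 was, but the genes moved in both directions. The sum of the 16 genes was 793 CPM in the first library and 3872 CPM in the second. Of the 16, 10 had the higher CPM in replicate 2 and 6 the lower. Without Egr3, the gene that moved the sum most, it was 489 and 1802 CPM. Of the 15 that averaged 1 CPM or more, 7 were more than 2-fold higher in replicate 2 and 0 more than 2-fold lower, with a median log2 ratio of 0.73. Among all symbols with such a mean, 4.51% were 2-fold higher and 5.75% 2-fold lower in replicate 2. Egr3, a transcription factor gene, was the highest at 304 and 2071 CPM, and Ier2 the lowest at 0.958 and 0.611 CPM. Their part in the Nptx2 difference was not tested.

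C1ql1 was 2.01 and 0.245 CPM, a log2 ratio of -2.67 (-4.22 to -1.88), and Cbln1 had a ratio of -2.94 (-5.94 to -1.94) from 37 and 3 counts. Over all 19219 symbols with a count in either library, 11.2% were more than 2-fold lower in replicate 2. Lists of other cells with a lower sum in replicate 2 were those of mossy cells (summed CPM 162 and 114, 4 of 6 detected) and of CA1 pyramidal cells (116 and 84.4, 4 of 4 detected). The mossy cell list was led by Ociad2 (103 and 77.9 CPM), and Calb2, taken here as its defining marker, was at 3.55 and 1.44 CPM. Of its 6 markers, 5 were lower in replicate 2 and 1 higher, Drd2, the lowest of the list at 0.256 and 0.336 CPM. The CA1 list was led by Wfs1 at 73.5 and 59.9 CPM and lowest for Pou3f1, with 4 of 4 markers lower. The oligodendrocyte list was lower in sum as well (180 and 137, 5 of 6 detected, led by Mbp and lowest for Cldn11). Of its 6 markers, 4 were lower in replicate 2 and 2 higher, Cldn11 among the higher ones. The part of these lists in the C1ql1 and Cbln1 differences was not tested.

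The Cajal-Retzius list was higher in replicate 2 (summed CPM 59.9 and 89.1, 3 of 5 detected), and 5 of its 5 markers had the higher CPM there. It was led by Reln at 28.6 and 49.5 CPM and lowest for Lhx5 at 0.479 and 0.917 CPM, which was not detected. The list of thalamus and habenula, regions near the dentate gyrus, was also higher (8.69 and 13.3, 3 of 8 detected), with Gbx2 and Chrnb3 at 0 counts.

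The CA3, GABAergic and astrocyte lists also had markers that moved in both directions. The CA3 pyramidal cell list summed to 34.0 and 78.9 CPM (4 of 5 detected), but to 25.3 and 24.6 CPM without Nectin3, a cell adhesion gene at 8.72 and 54.3 CPM. The GABAergic list summed to 76.6 and 125 CPM (3 of 8 detected), and 4 of its 8 markers were higher in replicate 2. Without the glutamate decarboxylase genes Gad1 (50.02 and 75.6 CPM) and Gad2 (19.7 and 42.8 CPM) it summed to 6.87 and 6.97 CPM, and the vesicular transporter gene Slc32a1 was at 0.703 and 0.367 CPM. The astrocyte list summed to 55.7 and 64.8 CPM (6 of 7 detected), with 3 of its 7 markers higher in replicate 2 and 4 lower, and was led by Slc1a3 at 21.4 and 27.6 CPM. The sums without Nectin3, without Gad1 and Gad2, and without Egr3 were computed after the values were seen.

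Microglial markers summed to 2.59 and 2.26 CPM with 0 of 7 detected. Of the complement genes on that list, relatives of the C1q-like family by their shared domain, C1qa and C1qb had 0 counts and C1qc had 11 and 4.

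Markers of granule cells, the principal neurons of the labelled tissue, were present. All 10 were detected, with sums of 5062 and 5176 CPM and 0 of 10 past 2-fold between the libraries. Prox1, the transcription factor that defines these neurons, stood at 1100 and 1193 CPM, and Lypd1 at 265 and 194 CPM.

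The genes differed in structure as well as in level. Coding sequences of the 3 C1q-like ligands were short, at 768 to 864 bases, and had 60.8% to 65.3% G and C. Those of the cerebellins had 582 to 675 bases with 49.9% to 58.4% G and C. The pentraxin genes Nptx1, Nptx2 and Nptxr had 1299, 1290 and 1482 coding bases, and Bai3 had 4569 with 46.2% G and C. Levels per kilobase are corrected for length and not for base composition.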

How the data were processed

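Ribosome-bound RNA of 2 libraries from 1 group was analysed. The deposited values are raw counts per gene symbol, not normalised, 1 table per library. STAR 2.0.0e, HTSeq and build mm10 are named, per the submitters' processing notes, while no annotation, strand setting or read length is given in the sources used here. Gene lines held 65.0% of all counts in replicate 1 and 64.9% in replicate 2. HTSeq summary lines and the line unknown were left out of totals of 31309643 and 32711412.

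From these counts, CPM and CPM per kilobase were computed, with the union of exons in GENCODE M21 (GRCm38) as length, found for 92.3% of detected symbols. Log2 ratios used TMM-scaled totals (edgeR 4.0.16) and a prior count of 2, with exact Clopper-Pearson 95% counting intervals. These intervals, and the floor of 3 counts, cover only counting error and not the spread between libraries. Reads without molecular identifiers are not independent molecules, so the counting error itself may be larger than the intervals. DESeq2 1.42.0 size factors, library totals alone, other thresholds, other lengths and each library alone were the alternatives. With 1 group no test was possible. The code was tested on simulated data.

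All members are named, with every gene of a list of relatives and partners. Of each marker list at most the highest, lowest and defining genes are named, and C1qc beside C1qa and C1qb. The rest enter as counts and sums. The members and lists were chosen with earlier results of these data known. A few further genes were left out of the lists and their sums and are not reported here.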

Additional observations from a re-analysis of the deposited data

Results flagged for a closer look

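Counts outside the gene lines were used in no comparison and were well above 0. Reads placed in more than 1 gene, the class to which reads shared by Nptxr and Npcd would go in HTSeq's default setting, were 2.61% of the total over every line for replicate 1 and 2.56% for replicate 2. Reads in no annotated feature made up 16.7% and 17.0%, and reads with several alignments 15.7% and 15.5%. Groups of 2 libraries allow no check for an outlying sample.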

How the results depend on the processing

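The number of members detected was 5 and stayed within 5 to 7 when either library was left out, and was 5 with a threshold of 0.5 CPM, with at least 10 counts, and without Rn45s and Lars2 in the totals. Of the 9 steps in the order per kilobase, 7 to 9 kept their direction with 1 library left out and 8 without length correction. The members past 2-fold numbered 2, with 1 at a mean CPM of at least 10, where fewer genes enter, and 3 when 1 count in either library was enough. The median log2 ratio of the members was -0.10 with library totals alone, a scaling that put the median of all symbols at -0.10. Of 70 values of single genes under another setting, 64 stayed within the spread of the libraries or the counting interval, 6 moved and 0 changed sign among genes past 2-fold. Part of the 64 was fixed in advance, so that number does not measure stability. Leaving out 1 of 2 libraries always shifts a mean by less than their SD, so those levels had to stay. The same holds for levels by the longest transcript where it has the full exon length. Bai3 moved to 24.2 per kilobase with its longest transcript as length. Without replicate 1, C1ql1 was at 0.166 and Cbln1 at 0.0302 per kilobase, against means of 0.766 and 0.210, and both are among the values that stayed. Levels below 10 counts are limited by depth. No paired analysis was possible because there is only 1 group.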
